A study of Rattus norvegicus with 8 samples.

Results

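The BCL2 family genes described here are Bax, Bak1, Bcl2, Bcl2l1, Mcl1, Bcl2l11, Bid, Bbc3, Bmf and Bad. These 10 genes were chosen by name, and all 10 were measured among the 14506 genes on the arrays. Each gene is represented by its brightest probe set, a group of array probes for 1 transcript, among those that the array annotation pairs with that gene alone. The cells were ventricular cardiomyocytes (heart muscle cells) isolated from newborn rats and cultured on 6 cm dishes. They received the miR-222 precursor (4 arrays) or a scrambled control precursor (4 arrays), each at 0.4 µM and with a lipid transfection reagent, and RNA was taken after 48 h. A scrambled RNA can have effects too, which each difference includes, and the labels name no untransfected cells. The labels do not state whether each array had its own culture; the p-values here therefore rest on a spread that may be technical.

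The proteins of this family decide whether the outer membrane of mitochondria stays intact. BAX and BAK form pores in it, which release cytochrome c and start the caspase cascade. BCL2, BCL-XL (from Bcl2l1) and MCL1 hold these effectors back, and the BH3-only proteins BIM (from Bcl2l11), BID, PUMA (from Bbc3), BMF and BAD bind the survival proteins, some of them also the effectors. Cardiomyocytes are long-lived cells that rely on the survival proteins, and MCL1 is required in the adult mouse heart. In other cells Bbc3, Bmf and Bcl2l11 have been reported as targets of miR-221 or miR-222.

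A microRNA finds its targets mainly through its seed, bases 2 to 8. The mature strand that miR-222 is known for and its relative are shown because they share that seed, in capitals below, and they are the only 2 of the 724 mature rat microRNAs in the RefSeq table (build GRCr8) that hold it. They lie on the plus strand at chrX:6022682-6022702 and chrX:6023246-6023268.
rno-miR-222-3p: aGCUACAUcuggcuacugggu
rno-miR-221-3p: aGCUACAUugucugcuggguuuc
The untranslated regions of the members were not used here, so no target site is given for any of them.

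The comparison asks which of these transcripts differ in cardiomyocytes given extra miR-222. Bak1 fell 2.32-fold and Bcl2 1.89-fold with miR-222, Mcl1 and Bcl2l1 fell by smaller amounts, and Bid rose 1.43-fold. All 3 survival genes were lower, and so was Bak1 of the 2 effector genes. The brightest probe set of Bax did not pass the test, while the dimmer Bax probe set rose by 0.31 log2 units. Of the 5 BH3-only genes, 1 rose and 4 did not pass. In limma, with a threshold of 0.05 on the adjusted p, 5 of 10 members changed, where 24.7% of all genes did. In the lower direction 4 of 10 members passed, where 13.0% of genes did, and in the higher direction 1 of 10, where 11.7% did. The groups did not overlap in 5 of 10 members, against 33.3% of genes. The median log2 difference of the members was -0.15, beside 0.01 over all genes. Leaving out control replicate 1, or control replicate 2, left 3 lower members. The members were picked with results of these data known, and these counts are a description.

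**Figure D1:**
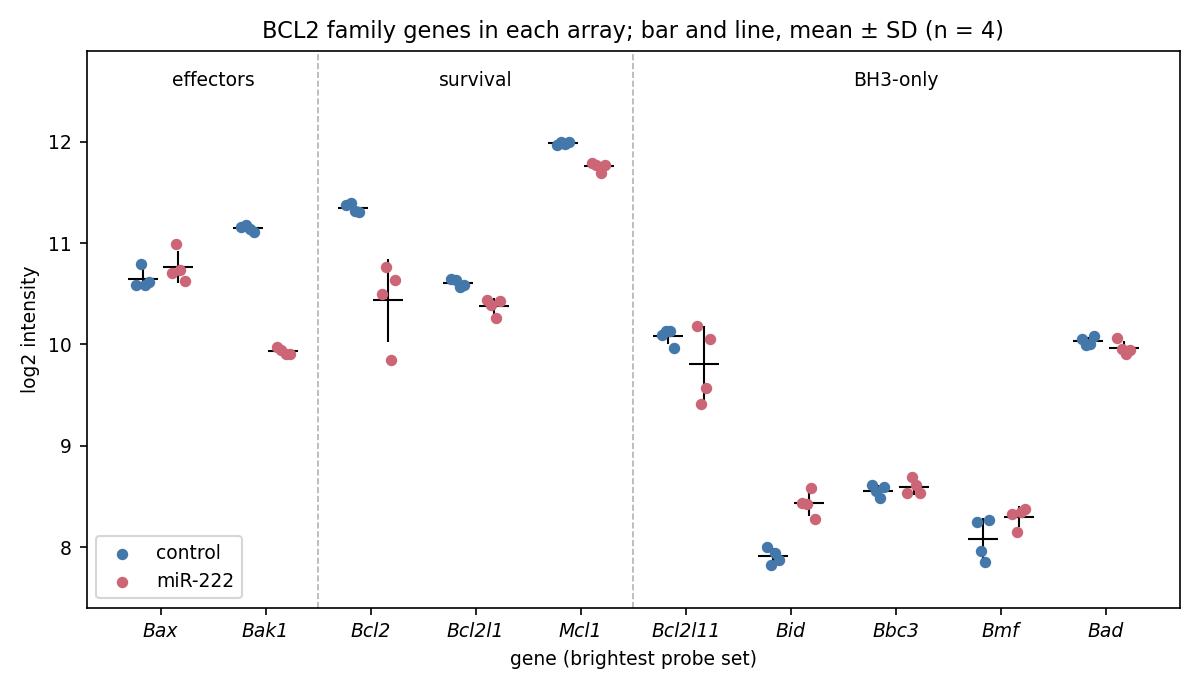
Log2 intensity of the 10 genes (brightest probe set) on each of the 8 arrays, control in blue and miR-222 in red, with the mean and SD of 4 arrays, grouped as effectors, survival genes and BH3-only genes. Levels are to be compared within a gene only; Bak1, Bcl2, Bcl2l1, Mcl1 and Bid show groups that do not overlap.

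The arrays were alike in overall level, with a median intensity of 202 to 219. Their log2 values correlated across probe sets at 0.989 to 0.993 within groups and at 0.983 to 0.989 between groups. With 4 arrays a group the precision is limited. Hipk2 is the kinase gene for which the study is known as a target of miR-222. It was 11.81 to 11.99 on the control arrays and 10.55 to 10.80 on the miR-222 arrays. It was thus lower with miR-222, and whether by direct repression was not tested. The summed intensity of 8 cardiomyocyte markers was 65240 to 66158 with the control and 59341 to 61452 with miR-222. That of 6 smooth muscle markers was 16157 to 16602 and 12582 to 15199, of 8 fibroblast markers 8839 to 9817 and 7680 to 8787, and of 5 endothelial markers 1457 to 1585 and 910 to 1004, where Kdr was the 1 endothelial marker that changed. All 6 leukocyte markers lay below the median of every array, with a sum of 619 to 661 and 637 to 676, and no marker of these lists was at 0. Of the cardiomyocyte markers Myh7 (-0.61 log2 units) and Ryr2 (-0.14) fell, Nkx2-5 (0.15) rose and 5 did not pass. Tagln and Pdgfrb fell while 4 smooth muscle markers did not pass. Lum and Postn fell while 6 fibroblast markers did not pass. miR-222 replicate 3 had the lowest sum of cardiomyocyte and smooth muscle markers. The part of other cell types in the results below was not tested, and in bulk RNA fewer cells of a type and less RNA per cell cannot be told apart.

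Bak1, which encodes the effector BAK, showed the largest change of the family. Its control arrays stood at 11.16, 11.18, 11.14 and 11.12 log2 units and its miR-222 arrays at 9.97, 9.95, 9.90 and 9.91. Every miR-222 array lay more than 1 log2 unit below every control array, and the arrays of a group differed by less than 0.1. The log2 difference was -1.21 (SE 0.04, 95% interval -1.30 to -1.13, n = 4 in each group, limma adjusted p = 1.36e-05). By size of change, up or down, Bak1 was number 38 of the 14506 genes, close to Hipk2 at number 35. The exact 2-sided permutation test over the arrays gave p = 0.0286, the smallest it can give with 4 against 4.

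Bax, the other effector gene, had 2 probe sets that gave different calls. The brighter one, 10738460, was 10.59, 10.79, 10.59 and 10.62 on the control arrays and 10.71, 10.99, 10.74 and 10.62 on the miR-222 arrays. The groups overlapped, since control replicate 2 stood above 3 of the 4 miR-222 arrays. Its log2 difference was 0.12 (SE 0.09, 95% interval -0.08 to 0.32, limma adjusted p = 0.425). The dimmer one, 10721834, was 9.55, 9.42, 9.61 and 9.45 in control and 9.77, 9.79, 9.81 and 9.89 with miR-222, with no overlap. It rose by 0.31 (SE 0.06, 95% interval 0.18 to 0.44, limma adjusted p = 0.00602). The annotation ties the brighter probe set to the RefSeq mRNA of Bax and the dimmer one to another sequence record. Probe positions were not used here, so whether the brighter probe set, on which the Bax value and the ratio below rest, reads Bax itself or a near copy elsewhere in the genome was not tested. Neither probe set was lower with miR-222. The brighter one measured 0.04 without miR-222 replicate 2. With the mean of both, Bax rose by 0.21 (limma adjusted p = 0.0149).

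Within each array the log2 ratio of Bak1 over Bax (brightest probe sets) had a mean of 0.50 ± 0.08 with the control and of -0.83 ± 0.15 with miR-222 (SD, n = 4 each), a change of -1.33. The exact 2-sided permutation test gave p = 0.0286, and 0.0381 adjusted over 4 such ratios, which were chosen after the values were seen. Without any single control array the change was -1.37 to -1.31 and the exact permutation p of this ratio stayed at 0.0286, while its adjusted p was 0.0762 because other ratios of the family had larger p-values.

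**Figure D2:**
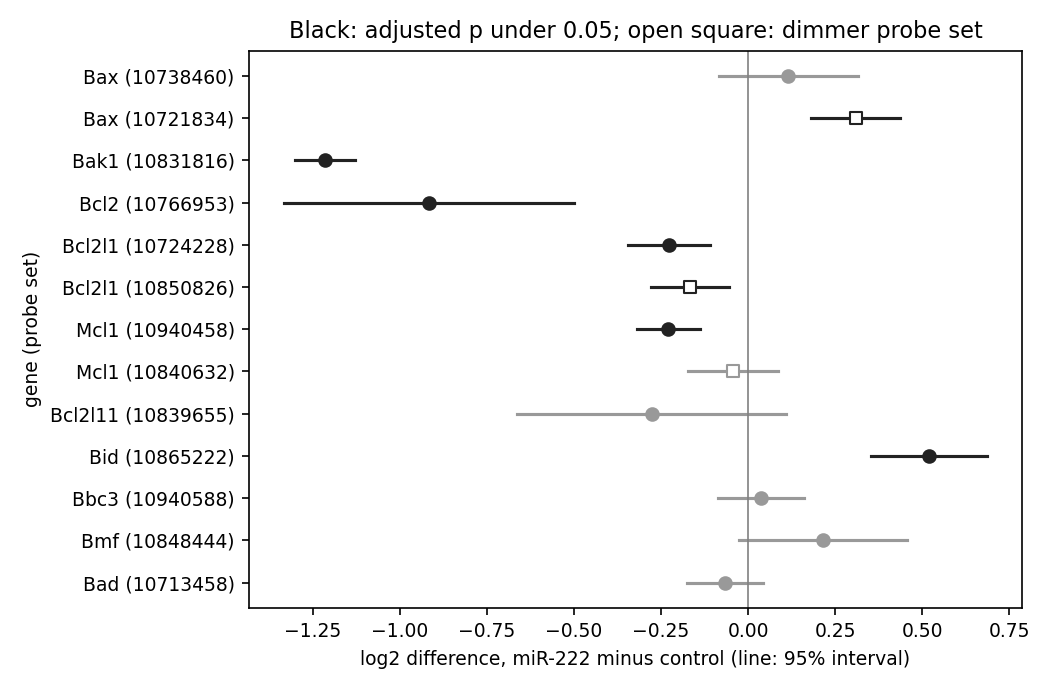
Log2 difference, miR-222 minus control, with its 95% interval for the 13 probe sets of the 10 genes; black marks an adjusted p under 0.05, grey a larger one, and open squares the dimmer probe set of Bax, Bcl2l1 and Mcl1. Bak1 stands at -1.21 with a narrow interval, while the intervals of Bcl2 and Bcl2l11 are wide.

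Of the survival genes Bcl2 fell most. Its control arrays were at 11.37, 11.40, 11.32 and 11.31 and its miR-222 arrays at 10.50, 10.77, 9.85 and 10.63. All miR-222 arrays were below all control arrays, but they were spread widely, with miR-222 replicate 3 lowest. The SD was 0.04 for control and 0.41 for miR-222. The log2 difference was -0.92 (SE 0.18, 95% interval -1.33 to -0.50, limma adjusted p = 0.00942). Without miR-222 replicate 3 it was -0.72 (SE 0.07) with an adjusted p of 8.86e-04.

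Mcl1, whose protein is short-lived and quickly lost when its synthesis stops, changed less. Its brightest probe set, 10940458, was 11.97, 12.00, 11.98 and 12.00 in control and 11.80, 11.78, 11.69 and 11.77 with miR-222. The groups were narrow and did not overlap. The log2 difference was -0.23 (SE 0.04, 95% interval -0.32 to -0.14, limma adjusted p = 0.00493). Its dimmer probe set, 10840632, had a mean of 7.54 in control, below the array medians of 7.66 to 7.77, and a difference of -0.04 (SE 0.06, limma adjusted p = 0.671). The mean of both probe sets gave -0.14 and did not pass (adjusted p = 0.0668). Whether the dimmer one reads Mcl1 itself or a near copy elsewhere was not tested.

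Bcl2l1, which encodes BCL-XL, was lower by a like amount. Probe set 10724228 was 10.64, 10.64, 10.57 and 10.58 in control and 10.44, 10.39, 10.26 and 10.43 with miR-222. The groups did not overlap, and miR-222 replicate 3 was again lowest. The difference was -0.23 (SE 0.05, 95% interval -0.35 to -0.11, limma adjusted p = 0.0166), and the call was lost without control replicate 1 (adjusted p = 0.0541) or control replicate 2 (adjusted p = 0.0507). The dimmer probe set, 10850826, which the annotation ties to the RefSeq mRNAs, gave -0.17 (SE 0.05, limma adjusted p = 0.0484). Both probe sets were therefore lower with miR-222. Whether the brighter one, tied in the annotation to another sequence record, reads Bcl2l1 itself or a near copy elsewhere was not tested, and the ratios below rest on it.

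Within arrays Bcl2 fell more than its relatives. The ratios that show it were chosen after the values of these genes were seen, so their p-values add no independent support. The log2 ratio of Bcl2 over Bcl2l1 changed by -0.69 and that of Bcl2 over Mcl1 by -0.69 (exact 2-sided permutation p = 0.0286 each, 0.0381 adjusted over the 4 ratios). Without any single control array the changes were -0.70 to -0.67, with an exact permutation p of 0.0571 and an adjusted p of 0.0762. On the same arrays the ratio of Bak1 over Bax kept an exact permutation p of 0.0286. Without miR-222 replicate 3 they were -0.53 and -0.51 (adjusted exact permutation p = 0.0381 each). The ratio of Bcl2l1 over Mcl1 was -1.38 ± 0.04 in both groups (SD, n = 4 each), a change of 0.00 (exact permutation p = 0.943).

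Bid was the BH3-only gene that rose. Its protein is cut by caspase 8 and carries the signal of death receptors to mitochondria. Its intensities, on the linear scale, were 256, 227, 246 and 235 on the control arrays and 346, 343, 384 and 310 on the miR-222 arrays. All miR-222 arrays were higher than all control arrays. The log2 difference was 0.52 (SE 0.07, 95% interval 0.35 to 0.68, limma adjusted p = 0.00193). Casp8 itself, among the pathway genes below, measured 0.18 (SE 0.09, limma adjusted p = 0.202) and did not pass.

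Bcl2l11, which encodes BIM, split the miR-222 arrays. The control arrays were at 10.09, 10.14, 10.14 and 9.97. The miR-222 arrays were at 10.18, 9.41, 9.57 and 10.06, so that replicates 2 and 3 lay below all control arrays while replicates 1 and 4 lay among or above them. The SD was 0.08 for control and 0.37 for miR-222. The log2 difference of -0.28 (SE 0.17, 95% interval -0.66 to 0.11) did not pass (limma adjusted p = 0.318). It ranged from -0.40 without miR-222 replicate 1 to -0.14 without miR-222 replicate 2, and passed in neither. Array weights, which count noisier arrays less, were lowest for miR-222 replicates 2 and 3 (0.565 and 0.595). With these weights the Bcl2l11 difference was -0.145 (limma adjusted p = 0.561).

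The remaining BH3-only genes did not pass. Bbc3, which encodes the p53-induced protein PUMA, was 8.61, 8.55, 8.48 and 8.59 in control and 8.54, 8.70, 8.61 and 8.53 with miR-222. These values overlapped, with a difference of 0.04 (SE 0.05, 95% interval -0.09 to 0.16, limma adjusted p = 0.703), or 0.0033 without miR-222 replicate 2. Bmf, whose protein is held on the cytoskeleton by a dynein light chain, was 8.25, 7.96, 7.86 and 8.27 in control and 8.32, 8.14, 8.34 and 8.38 with miR-222. Only miR-222 replicate 2 lay within the control range, and the difference was 0.21 (SE 0.10, 95% interval -0.03 to 0.46, limma adjusted p = 0.211), or 0.14 without control replicate 3. Bad, whose protein is inactivated by survival kinases, had linear intensities of 1060, 1022, 1031 and 1088 in control and 1072, 994, 963 and 986 with miR-222, which overlapped. Its log2 difference was -0.07 (SE 0.05, 95% interval -0.17 to 0.04, limma adjusted p = 0.406). The interval reaches no lower than -0.09 for Bbc3, -0.03 for Bmf and -0.17 for Bad. These are limits on RNA only, and protein was not measured.

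**Figure D3:**
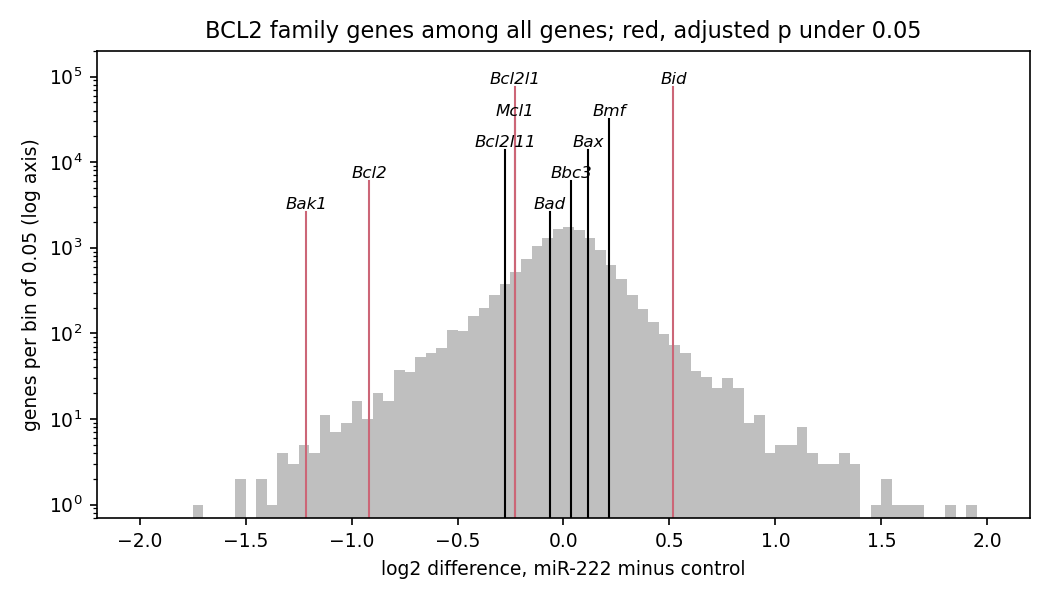
Histogram of the log2 difference, miR-222 minus control, of all 14506 genes in bins of 0.05 on a logarithmic count axis, with the 10 BCL2 family genes drawn as lines, red where the adjusted p is under 0.05. Bak1 at -1.21 and Bcl2 at -0.92 lie in the sparse lower tail and Bid at 0.52 in the upper one.

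In order of the log2 difference the members ran from Bak1 and Bcl2 through Bcl2l11, Mcl1, Bcl2l1, Bad, Bbc3, Bax and Bmf to Bid. The 95% intervals of Bak1 and Bcl2 overlapped, as did those of Bcl2 and Bcl2l11, and those of Bcl2l11, Mcl1 and Bcl2l1 with each other. The interval of Bak1 overlapped that of no member other than Bcl2, and that of Bid only that of Bmf. By rank of size among the 14506 genes, Bcl2 was number 125 and Bid number 743, whereas Mcl1 and Bcl2l1 were numbers 3480 and 3497 although both passed the test.

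The genes whose log2 values over the 8 arrays were most like those of Bak1 were Adipor1, an adiponectin receptor gene, Purb, which encodes a nucleic acid binding protein, and Flot2, a gene of membrane rafts. Pearson's r was 0.999 for each, over 8 arrays that share the step between the groups, which by itself sets most of such a value. Adipor1 fell by 1.21 (SE 0.05, limma adjusted p = 1.73e-05), Purb by 0.75 (SE 0.04, limma adjusted p = 4.25e-05) and Flot2 by 0.98 (SE 0.04, limma adjusted p = 2.16e-05) on the log2 scale.

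Of 65 genes listed for the rest of the pathway 55 were measured, of which 9 rose, 5 fell and 41 did not pass, with a median of -0.01. That is 25.5% changed, close to the 24.7% of all genes, so the count shows nothing particular to the pathway. The counts of the 4 lists below are to be read beside the 11.7% of all genes that were higher and the 13.0% that were lower. The 5 lower genes became 3 without any single control array, and the 9 higher genes became 5 when array medians were subtracted. Among 12 other BCL2 relatives 1 fell and 11 did not pass. Bcl2l13, a mitochondrial receptor of mitophagy, was 10.46, 10.42, 10.40 and 10.59 in control and 10.34, 10.23, 10.29 and 10.19 with miR-222. Its difference was -0.21 (SE 0.06, limma adjusted p = 0.0395), and it kept this call on leaving out miR-222 replicate 1 but on leaving out no other array (adjusted p 0.0520 to 0.0971). Bnip3, a hypoxia-induced mitophagy gene, measured -0.37 (SE 0.14, limma adjusted p = 0.108) and passed without miR-222 replicate 3 (-0.49, adjusted p = 0.0226) and with array weights (adjusted p = 0.0488). Without miR-222 replicate 4 it measured -0.24 (adjusted p = 0.137). Bcl2l12, Bnip3l and Bcl2l14 measured 0.07, -0.08 and 0.08 and did not pass.

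Of 13 genes for proteins released from mitochondria, for the channels and dynamics of their membranes and for the apoptosome, 1 rose, 1 fell and 11 did not pass. Diablo, whose protein SMAC blocks the inhibitors of apoptosis, rose by 0.20 (SE 0.04, limma adjusted p = 0.0137), from 11.49 to 11.57 in control to 11.68 to 11.79 with miR-222. It did not pass when array medians were subtracted (adjusted p = 0.0952). Vdac3, a channel of the outer membrane, fell by 0.15 (SE 0.04, limma adjusted p = 0.0252), and this call was lost on leaving out any 1 of the controls, or miR-222 replicate 1 (adjusted p 0.0504 to 0.0805). Endog, Dnm1l and Aifm1 measured 0.18, -0.11 and -0.08 and did not pass (limma adjusted p = 0.0636, 0.0708 and 0.187). Endog passed in 6 of 16 alternative fits, among them the one without miR-222 replicate 2 (adjusted p = 0.0482).

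Of 6 genes of inhibitors of apoptosis, among which Cflar was listed although it acts on caspase 8, 1 fell and 5 did not pass. Cflar was 8.95 to 9.12 in control and 8.65 to 8.77 with miR-222, a difference of -0.29 (SE 0.05, limma adjusted p = 0.00787). Naip6 measured 0.28, Birc5 0.32, Birc2 0.11 and Xiap -0.03, none past the threshold. Birc5, which encodes survivin and acts in mitosis, passed without miR-222 replicate 3 (0.44, adjusted p = 0.0261).

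Of 24 regulators of the family's genes and proteins 8 rose, 2 fell and 14 did not pass. Foxo1, a transcription factor known to act on the BIM gene, had control arrays at 9.22, 9.04, 9.11 and 9.08 and miR-222 arrays at 9.92, 10.03, 10.37 and 9.94. It rose by 0.95 (SE 0.10, limma adjusted p = 5.78e-04) with no overlap. Ddit3, which encodes the stress factor CHOP, rose by 0.81 (SE 0.13, limma adjusted p = 0.00312), from 9.56 to 9.64 in control to 10.13 to 10.68 with miR-222. Ywhaz, a 14-3-3 protein gene whose product holds phosphorylated BAD, rose by 0.40 (SE 0.04, limma adjusted p = 2.39e-04). Mapk8, the gene of the stress kinase JNK1, fell by 0.83 (SE 0.08, limma adjusted p = 3.30e-04), from 10.31 to 10.45 to 9.33 to 9.69. Mitf, a factor known to act on the BCL2 gene in melanocytes, fell by 0.30 (SE 0.04, limma adjusted p = 0.00137).

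**Figure D4:**
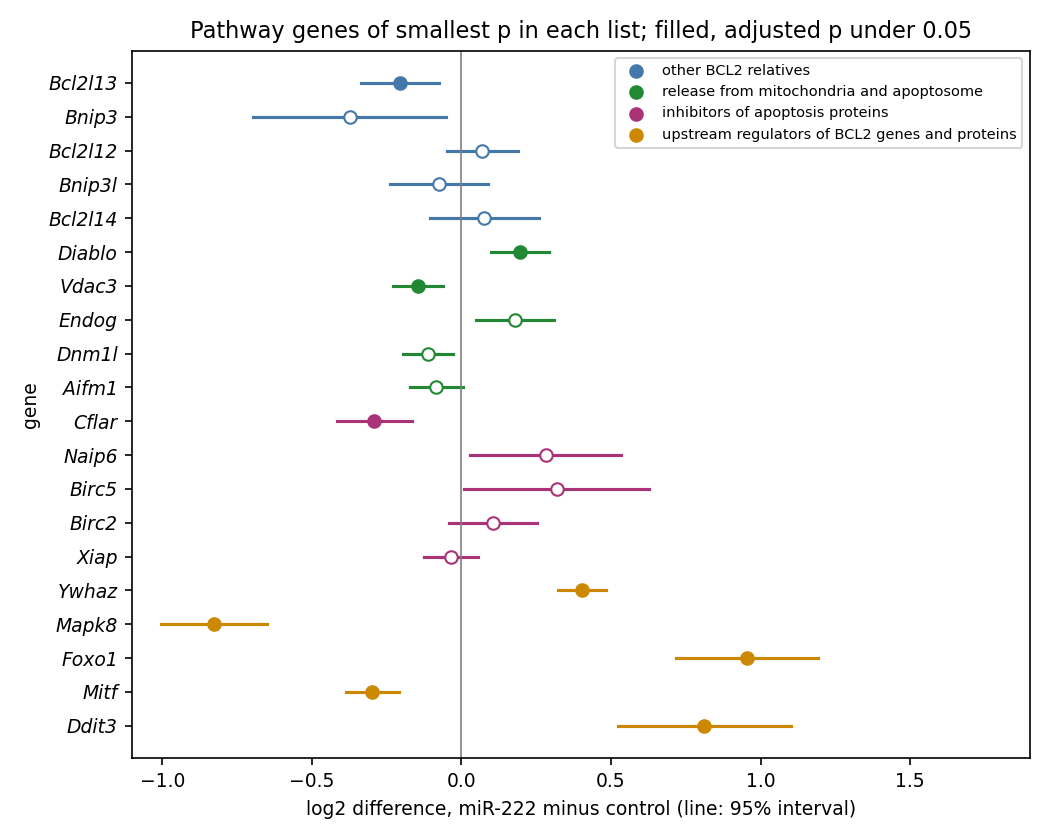
Log2 difference, miR-222 minus control, with its 95% interval for the 5 genes of smallest p in each of the 4 pathway lists; filled points have an adjusted p under 0.05. Mapk8 at -0.83 and Foxo1 at 0.95 stand at the ends, and most genes of the other lists lie close to 0.

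Promoter windows, 250 bases before to 50 after a transcript start in RefSeq (build GRCr8), were found for 8 of the 10 members, all but Bax and Bbc3, with 11 windows in all. They were searched on both strands for 5 motifs that do not overlap one another in the windows shown. These were the GC box (GGGCGG), found in 33.1% of all 33469 windows, the CCAAT box (CCAAT) in 37.5%, the TATA box (TATAAA) in 14.2%, a FoxO core (TGTTTAC) in 3.78% and a CRE half-site (TGACG) in 21.2%. Of 11 windows, 6 held a GC box, 4 a CCAAT box, 1 a TATA box, 2 a FoxO core and 2 a CRE half-site. By gene, a GC box was in a window of 6 members and a CCAAT box in 3. The TATA box was in Bcl2, the FoxO core in Bad and Bcl2l11, and the CRE half-site in Bmf and Mcl1. Shown with matches in capitals are the windows of Bak1 (chr20:5110925-5111224, minus strand) and Bcl2 (chr13:23366851-23367150, minus strand), which fell most. The windows of Bid (chr4:155808270-155808569, minus strand), which rose, and of Bcl2l11 (chr3:135819792-135820091, plus strand), which holds a FoxO core, are also shown. Neither Bcl2l11 nor Bad, the members with a FoxO core, passed the test, and a role of Foxo1 was not tested.
Bak1: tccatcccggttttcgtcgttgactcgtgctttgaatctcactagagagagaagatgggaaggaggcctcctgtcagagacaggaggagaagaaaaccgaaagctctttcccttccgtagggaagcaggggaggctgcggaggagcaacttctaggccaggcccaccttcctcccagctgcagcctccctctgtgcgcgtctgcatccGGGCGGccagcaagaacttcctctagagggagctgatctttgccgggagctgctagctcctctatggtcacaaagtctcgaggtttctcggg
Bcl2: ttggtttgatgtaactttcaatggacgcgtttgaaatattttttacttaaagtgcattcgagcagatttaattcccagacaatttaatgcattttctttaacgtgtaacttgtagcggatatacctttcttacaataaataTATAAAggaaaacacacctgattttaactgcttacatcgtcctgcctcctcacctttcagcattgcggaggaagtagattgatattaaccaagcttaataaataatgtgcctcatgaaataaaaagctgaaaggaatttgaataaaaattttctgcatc
Bid: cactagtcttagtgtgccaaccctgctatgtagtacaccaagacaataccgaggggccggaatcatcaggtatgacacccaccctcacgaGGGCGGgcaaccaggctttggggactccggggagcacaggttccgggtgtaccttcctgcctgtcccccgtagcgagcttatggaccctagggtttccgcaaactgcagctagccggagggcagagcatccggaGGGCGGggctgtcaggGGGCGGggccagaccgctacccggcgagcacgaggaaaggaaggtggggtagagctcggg
Bcl2l11: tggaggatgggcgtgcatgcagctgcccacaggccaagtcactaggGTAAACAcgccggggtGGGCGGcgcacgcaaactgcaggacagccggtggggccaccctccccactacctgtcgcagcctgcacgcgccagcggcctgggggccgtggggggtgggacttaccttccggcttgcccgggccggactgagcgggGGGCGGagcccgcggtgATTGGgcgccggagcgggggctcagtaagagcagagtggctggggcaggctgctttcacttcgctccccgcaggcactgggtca
The window of Bak1 holds 1 GC box and that of Bid 3, while that of Bcl2 holds the TATA box letters and no GC box. The TATAAA of the Bcl2 window begins 109 bases before the start. In the Bcl2l11 window the FoxO core, read on the opposite strand as GTAAACA, begins 204 bases before the start. A match is a description of these letters and not a site, and the arrays do not measure binding.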

How the data were processed

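The authors deposited intensities per probe set on a linear scale, from 0.8 to 16339, with like array medians (their processing and normalization: not given in the sources used here), and scanner files were not used here. The series text names another Affymetrix rat array than the one whose annotation pairs with the identifiers of the table. That annotation paired 15310 of 29170 probe sets with 1 gene, which gave 14506 genes. The brightest probe set by mean over the 8 arrays stands for a gene.

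Values were taken as log2 and compared with limma 3.58.1 (lmFit, eBayes) in R 4.3.3, 2-sided, with the Benjamini-Hochberg adjustment of p-values across the 29170 probe sets and a threshold of 0.05. Fold changes are miR-222 minus control with the SE of that fit. The fit was tested on simulated data. Alternatives were an offset of 16 before log2, leaving out the dimmest 20% of probe sets, adjusting over probe sets with 1 gene, quantile or median scaling, a trended robust prior, array weights, the mean of a gene's probe sets, exact permutation and leaving out each array. Replicates are numbered in the order listed.

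Members and lists were chosen with earlier results of these data known. Named were all members, 5 genes of smallest p in each of the 4 pathway lists, the 3 genes most like the member of smallest p, and Hipk2. Casp8, Kdr, Myh7, Ryr2, Nkx2-5, Tagln, Pdgfrb, Lum and Postn were named after their values were seen. Figures used matplotlib 3.10.9 in Python 3.11.15.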

Additional observations from a re-analysis of the deposited data

Results flagged for a closer look

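On the brighter Bax probe set, control replicate 2 stood at 10.79 log2 units while the other 3 control arrays lay at 10.59 to 10.62, a gap of 0.83 of the group's range, just past the 95% limit of Dixon's test for 4 arrays. Of 74 groups of 4 tested this was the 1 marked, where chance marks about 1 in 20. On the dimmer Bax probe set the same array was the lowest control, at 9.42.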

How the results depend on the processing

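The 4 lower members were 4 under each alternative that kept all 8 arrays and 1 probe set per gene, and 3 with the mean over a gene's probe sets, where the higher members were 2 and not 1. Leaving out 1 array at a time gave 3 to 4 lower and 1 higher member, 7 to 10 higher and 3 to 5 lower pathway genes, and 4066 to 5379 probe sets called, against 5508 with all arrays. Pathway genes were 5 higher with array medians subtracted and 9 lower with a trended robust prior. Bak1, Bcl2 and Bid passed under all 16 alternative fits, at -1.24 to -1.20, -1.03 to -0.72 and 0.47 to 0.57. No member's difference changed sign among those fits. Subtracting array medians moved the median of all genes from 0.01 to -0.01. No paired analysis was possible because replicate numbers are not in the labels. Probe sets near the dim end, such as the second one of Mcl1, limit what a small change can show.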
